A study of Mus musculus with 4 samples.

Results

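Runx1, Runx3 and Ets1 are transcription factors that work with Foxp3, and the accessible chromatin around their genes was compared between regulatory T cells with an intact and with a knocked-out Flicr gene. The members were all regions of the deposited lists that overlapped a window of the mm9 genome: chr16:92580000-92850000 for Runx1, chr4:134640000-134770000 for Runx3 and chr9:32470000-32600000 for Ets1. The windows held 41, 17 and 39 regions, 97 of the 84476 regions of the series. They are 270001, 130001 and 130001 bp long, while the genes span 224609, 57346 and 121580 bp in the RefSeq gene table of GRCm38.p6. No annotation of mm9 was used here, so the place of each gene in its window was not checked, and no region could be assigned to a promoter, exon, intron or enhancer.

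The 4 libraries were made by ATAC-seq, in which a transposase cuts open chromatin and leaves sequencing adapters there. All came from males of the diabetes-prone NOD strain at 8 to 10 weeks of age, from spleen and "LN" in the labels' word, and 2 libraries carried the genotype Flicr WT and 2 the genotype Flicr KO. Each was made from 50000 DAPI-negative CD4+ TCRβ+ cells in the top 50% of CD25 staining, and the descriptions differ on whether the sort was single or double. Flicr is a long noncoding RNA gene beside Foxp3. The sources used here do not say how Flicr was knocked out or whether replicates were separate mice or pools. Each p-value therefore rests on the spread between the libraries alone, which may be technical. In the fits region by region that spread was in large part pooled from other regions. Fewer cells with an open region and less opening in each cell cannot be told apart in such bulk libraries. The labelled cell type was not checked against marker genes, because the lists name no genes.

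Runx factors bind DNA through their Runt domain together with the cofactor Cbfb. In regulatory T cells Runx1 binds the Foxp3 protein and, like Runx3, helps to keep the Foxp3 gene expressed, while Runx3 is best known for directing cytotoxic T cells and silencing Cd4. Ets1, a founding member of the Ets family, binds regulatory DNA of Foxp3 and is needed for normal development of regulatory T cells. Runx1 and Runx3 are each transcribed from a distal and a proximal promoter. In the gene table, the nearest protein-coding neighbours are Clic6 and Setd4 for Runx1, Syf2 and Clic4 for Runx3, and Fli1, another Ets factor, and Kirrel3 for Ets1. Other Runx and Ets factors and the cofactor Cbfb were not analysed here, since they too would need an annotation of mm9.

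The distal promoters of Runx1 and Runx3 shared a pair of RUNX motifs, shown here because Runx proteins bind this motif and both genes carry it. RefSeq promoters of GRCm38.p6, which run from 250 bases before to 50 after a start site, were matched by symbol for 2 of the 3 genes, Runx1 and Runx3, each with a distal and a proximal promoter. Ets1 had no match. The RUNX motif searched was AACCACA on either strand. The capitals mark the pair in 23 bases of each distal promoter, at chr16:92826029-92826051 on the minus strand for Runx1 and chr4:135120506-135120528 on the plus strand for Runx3.
Runx1 distal: aaacAACCACAGAACCACAagtt
Runx3 distal: cctcAACCACAGAACCACAaggc
The pair begins at base 278 of the 300 in Runx1, past the start site, and at base 116 in Runx3, before it. At least 1 AACCACA, alone or within the pair, was found in 5.27% of the 32851 promoters of the table and the pair in 4 of them (0.0122%): those of Runx1, Runx2 and Runx3, and that of Gm16225, a noncoding RNA gene whose promoter was listed on the strand opposite to Runx3. Neither proximal promoter held AACCACA, and none of the 4 promoters held the Ets motif CCGGAAG on either strand, which 8.86% of all promoters held. The 250 bases before the distal start site of Runx3 (chr4:135120395-135120644, GRCm38.p6, plus strand) give the context of the pair, again with the motif in capitals.
Runx3 distal, upstream: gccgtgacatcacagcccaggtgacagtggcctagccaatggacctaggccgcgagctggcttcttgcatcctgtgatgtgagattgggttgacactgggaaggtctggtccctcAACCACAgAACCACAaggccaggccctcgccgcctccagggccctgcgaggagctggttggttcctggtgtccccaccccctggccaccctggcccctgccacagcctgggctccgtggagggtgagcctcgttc
G and C made up 45.6% of the bases before the distal start site of Runx1 and 65.2% in Runx3, against 67.6% and 78.8% before the proximal ones and a median of 52.4% over all promoters. CpG pairs numbered 2 and 8 in the distal and 27 and 38 in the proximal stretches. These coordinates belong to another build than the regions below, so the promoters could not be laid on the accessible regions.

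Depth and the share of reads in regions differed between the libraries. The libraries held 19514512 to 41809276 reads, and 24.2% to 35.1% of them fell in regions, lowest in Flicr WT replicate 1. All values are RPKM, reads per kilobase of region and per 1000000 reads of the library, which rise everywhere when that share rises. The median difference of KO minus WT over the 80254 regions tested was 0.21 on the log2(RPKM + 1) scale, and 0.073 after each library was centred on its own median. Differences in the windows are therefore given beside these medians. Reads per window region ran from 1 to 582 for Runx1, 2 to 113 for Runx3 and 2 to 753 for Ets1, and 1 is the lowest value of the lists, so a region at 1 read may have held 0.

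The windows differed in how their open chromatin was laid out. Ets1 held a nearly unbroken block of broad and narrower regions, Runx1 a crowded end and scattered regions before it, and Runx3 a few narrow regions far apart. In the Ets1 window the regions covered 45.1% of the sequence, against 10.0% for Runx1 and 5.12% for Runx3. The median width was 988 bp in Ets1, 506 bp in Runx1 and 317 bp in Runx3, where 377 bp was the median of all regions. Regions of 2000 bp or wider numbered 11 of 39 in Ets1 (28.2%), 1 of 41 in Runx1 (2.44%) and 0 of 17 in Runx3, against 3.39% of all regions.

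**Figure D1:**
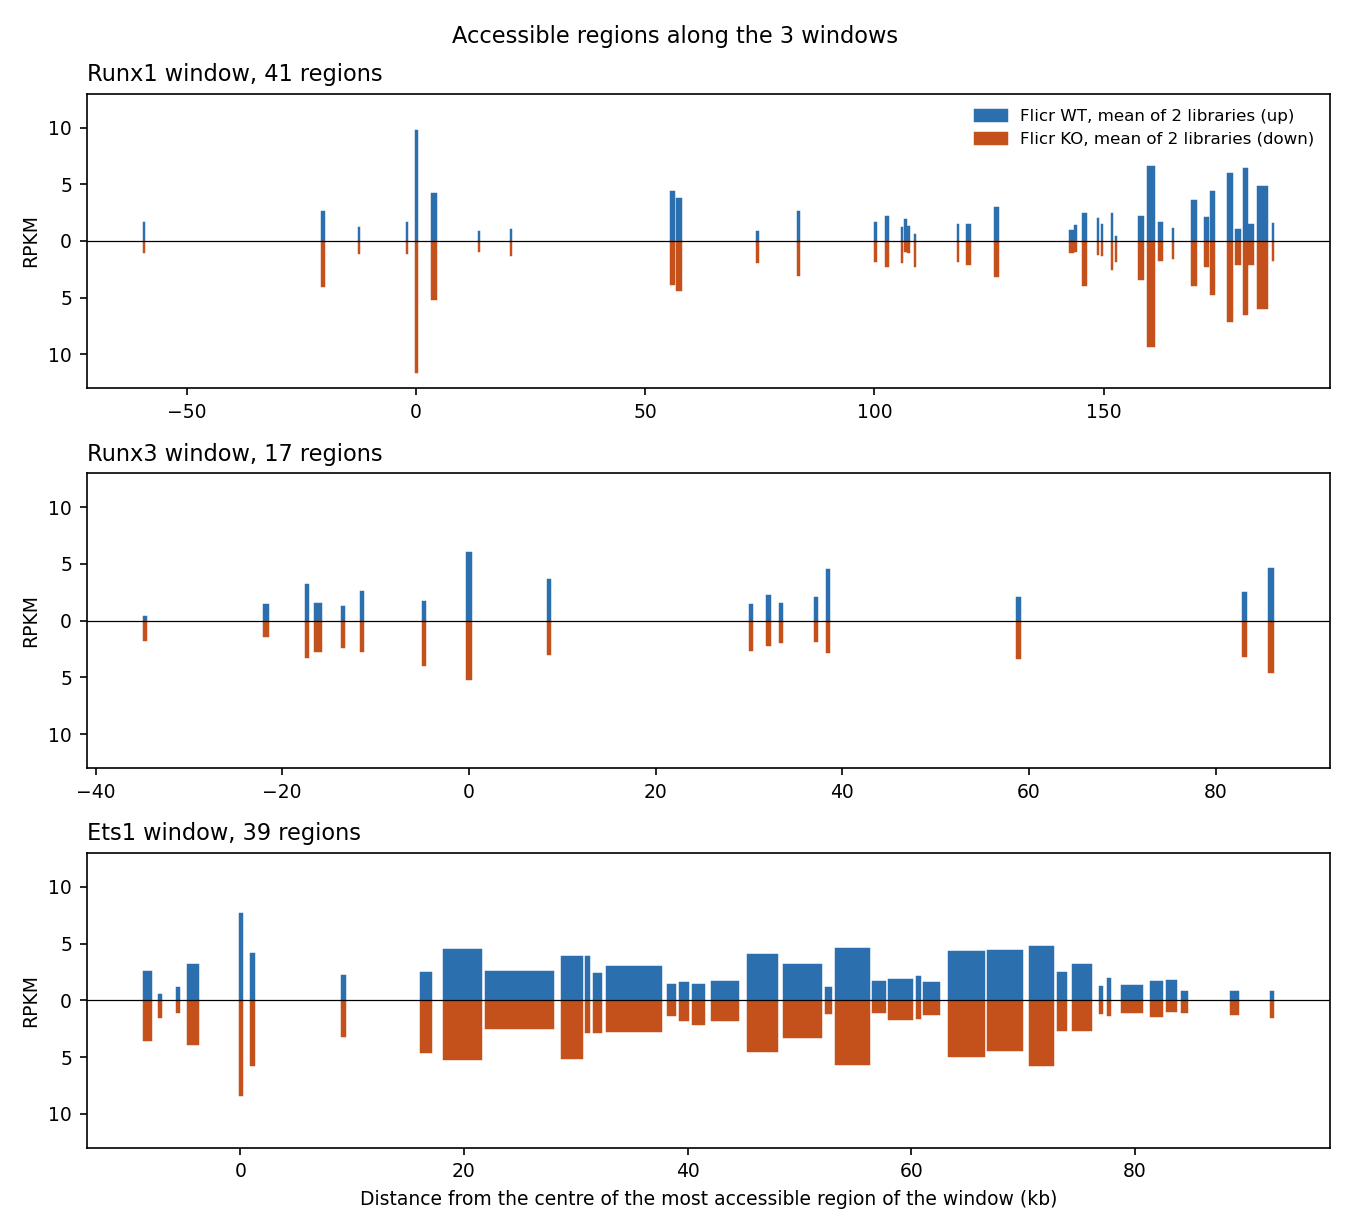
Mean RPKM of each region in Flicr WT (upward) and Flicr KO (downward), along each window, in kb from the centre of its most accessible region. Bars are as wide as the regions. The Ets1 window shows a block of broad and narrower regions, the Runx1 window a crowded right end, and the Runx3 window 17 separate narrow regions.

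Runx1: the strongest region overlapped between the genotypes, the second was higher in both KO libraries, and no region passed the test. Accessibility was uneven along the window: the last 20 regions lay within 44482 bp, from 92784076 to 92828557, and took 66.1% of the window's reads, whereas the longest stretch without a region, 92582349 to 92620961, was 38613 bp long. Mean levels ran from 0.903 to 10.7 RPKM with a median of 1.71 RPKM, and 16 of the 41 regions (39.0%) lay above the median of all regions, 2.22 RPKM. The library medians of the window were 1.78 and 2.22 RPKM in Flicr WT replicates 1 and 2 and 1.98 and 2.28 RPKM in Flicr KO replicates 1 and 2, which is 0.929, 0.900, 0.779 and 0.928 times the median of each library.

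The most accessible Runx1 region was chr16:92641306-92641820, 515 bp wide. It measured 11.2 and 8.28 RPKM in the WT libraries (169 and 138 reads) and 13.8 and 9.37 RPKM in the KO libraries (296 and 94 reads). It ranked first of 41 in every library, its mean lay at percentile 92.3 of all regions, and the genotypes overlapped. KO minus WT was 0.22 (SE 0.26, 95% CI −0.31 to 0.75) as deposited and 0.076 after centring, with limma adjusted p of 0.826 and 0.961. The next, chr16:92801047-92802469, lies in the crowded end. It measured 6.93 and 6.21 RPKM in WT and 9.79 and 8.79 RPKM in KO (288, 286, 582 and 244 reads), and the genotypes did not overlap. KO exceeded WT by 0.44 (SE 0.27, 95% CI −0.098 to 0.98), and by 0.30 after centring, with limma adjusted p of 0.627 and 0.743.

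The regions ranked 3 and 4 by level also lie in the crowded end, and their genotypes overlapped. At chr16:92818415-92819579 the values were 5.82 and 6.15 RPKM in WT and 6.02 and 8.10 RPKM in KO, and at chr16:92821862-92822783 they were 6.39 and 6.40 RPKM in WT and 7.22 and 5.68 RPKM in KO. The widest region of the window, chr16:92825008-92827277, is 2270 bp wide and measured 4.43 and 5.32 RPKM in WT and 6.09 and 5.69 RPKM in KO (294, 391, 578 and 252 reads). KO lay above WT there by 0.23 (SE 0.29), near the shift of all regions, with a limma adjusted p of 0.831, and the sign turned with scaling to total region reads, quantile normalization or voom.

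The 2 largest fitted rises and the 2 largest fitted falls in the Runx1 window rested on few reads. The largest fitted rise was at chr16:92794095-92794345, with 0.137 and 0.740 RPKM in WT (1 and 6 reads) and 1.91 and 1.64 RPKM in KO (20 and 8 reads), a difference of 0.98 (SE 0.56, limma adjusted p 0.606). At chr16:92750109-92750430 the values were 0.639 and 0.577 RPKM in WT and 3.43 and 0.958 RPKM in KO, with 6 reads in each WT library and 46 and 6 in KO, so KO replicate 1 stood far above KO replicate 2. The difference was 0.87 (SE 0.50, limma adjusted p 0.605). The largest fitted fall was at chr16:92748047-92748388, with 2.21 and 1.63 RPKM in WT and 1.40 and 0.301 RPKM in KO (22, 18, 20 and 2 reads), a difference of −0.72 (SE 0.47, limma adjusted p 0.655). The region at chr16:92582098-92582348 had the next largest fall, −0.52 (SE 0.50), on 8 and 18 reads in WT and 18 and 1 in KO.

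Of the 41 Runx1 regions, 39 had a mean of at least 1.01 RPKM and were tested, while those at chr16:92655023-92655273 and chr16:92784076-92784893 were lower. Limma called 0 of them at an adjusted p under 0.05, and 0 at an unadjusted p under 0.05, where 0.0187% of all regions tested were called higher in KO and 0% lower, and 8.22% and 0.842% were higher and lower at the unadjusted p. Limma voom on the reads recovered from the RPKM also called 0, where 18 of the 80254 regions tested were called higher in KO and 10 lower. KO lay wholly above WT in 12 of 39 regions (30.8%, against 33.2% of all regions tested) and below them in 3 (7.69%, against 7.81%). The median difference was 0.099, from −0.72 to 0.98, against 0.21 for all regions, and −0.040 against 0.073 after centring. The 95% intervals had a median half-width of 0.83 on the log2(RPKM + 1) scale, narrower in the strongest regions above.

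**Figure D2:**
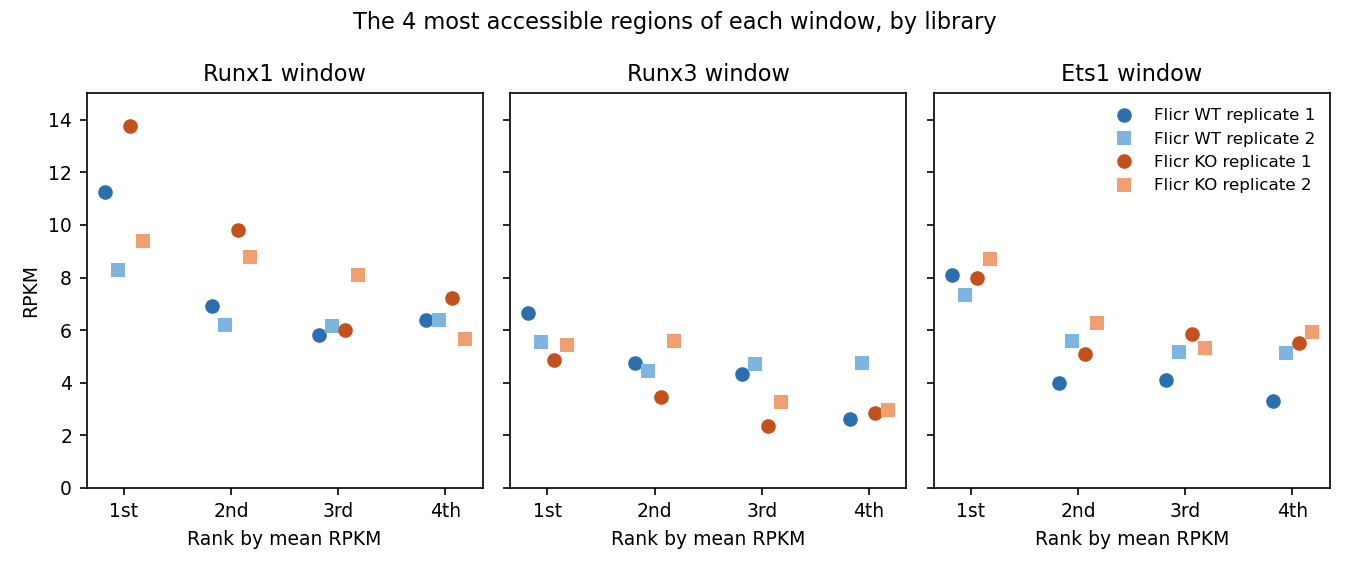
RPKM in each library for the 4 regions of highest mean in each window, ordered by rank. Each point is 1 library. In the Runx1 window the region ranked 2 has KO above WT without overlap, in the Runx3 window those ranked 1 and 3 have KO below WT, and the first region of the Ets1 window lies between 7.32 and 8.70 RPKM in all 4.

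Runx3: the window was sparse, its strongest region measured 4.85 to 6.63 RPKM in the 4 libraries, and no region passed the adjusted test. Its 17 regions were 251 to 760 bp wide with a median gap of 3682 bp, and only 1 of 16 gaps was 1000 bp or shorter (6.25%, against 19.9% of all gaps). Mean levels ran from 1.04 to 5.61 RPKM with a median of 2.65 RPKM, and 10 of 17 (58.8%) lay above the median of all regions. The library medians of the window were 1.85 and 2.19 RPKM in WT and 2.58 and 2.76 RPKM in KO, or 0.965 and 0.889 times the library median in WT and 1.02 and 1.12 times in KO. All regions of the window together held only 392 to 794 reads a library.

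The most accessible Runx3 region was chr4:134676081-134676638, 558 bp wide. It measured 6.63 and 5.54 RPKM in WT (108 and 100 reads) and 4.85 and 5.43 RPKM in KO (113 and 59 reads). Both KO libraries lay below both WT libraries, against the general shift, but the difference of −0.20 (SE 0.29, 95% CI −0.79 to 0.38) did not pass, with a limma adjusted p of 0.854, and of 0.752 after centring at −0.34. The second, chr4:134761936-134762533, had overlapping genotypes, with 4.76 and 4.44 RPKM in WT and 3.45 and 5.58 RPKM in KO. That ranked 4, chr4:134684769-134685081, also overlapped, with 2.63 and 4.75 RPKM in WT and 2.84 and 2.96 RPKM in KO.

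The region ranked 3 by level, chr4:134714671-134714986, had the largest fitted fall of the window. It measured 4.34 and 4.70 RPKM in WT (40 and 48 reads) and 2.35 and 3.25 RPKM in KO (31 and 20 reads), with no overlap. KO minus WT was −0.55 (SE 0.33, 95% CI −1.21 to 0.12; limma adjusted p 0.626), and −0.69 (SE 0.27, 95% CI −1.28 to −0.090) after centring, where the unadjusted p was 0.0274 and the limma adjusted p 0.592. The opposite direction was seen at chr4:134671382-134671632. There WT measured 1.37 and 2.10 RPKM (10 and 17 reads) and KO 3.25 and 4.51 RPKM (34 and 22 reads), again with no overlap. KO minus WT was 0.84 (SE 0.37, 95% CI 0.10 to 1.57), with an unadjusted p of 0.0268 and a limma adjusted p of 0.516, the smallest of the 93 regions tested in the 3 windows.

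The largest fitted rise of the Runx3 window was in its first and lowest region, chr4:134641465-134641715, with 0.274 and 0.494 RPKM in WT (2 and 4 reads) and 1.34 and 2.05 RPKM in KO (14 and 10 reads). The difference was 0.95 (SE 0.59, limma adjusted p 0.632). The widest region, chr4:134659775-134660534, measured 1.85 and 1.30 RPKM in WT and 1.89 and 3.38 RPKM in KO, a difference of 0.47 (SE 0.40). Its KO libraries differed from each other by more than the lower of them differed from WT.

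All 17 Runx3 regions were tested. Limma called 0 at an adjusted p under 0.05, where 0.0187% of all regions tested were called higher in KO and 0% lower. At an unadjusted p under 0.05, 1 was higher and 0 lower, where 8.22% and 0.842% of all regions tested were. After centring 0 were called, and 1 was higher and 1 lower at the unadjusted p, where 6% and 2.05% of all regions tested were. Limma voom also called 0, where 18 of the 80254 regions tested were called higher in KO and 10 lower. KO lay wholly above WT in 4 of 17 regions (23.5%) and below them in 2 (11.8%), against 33.2% and 7.81% of all regions tested. The median difference was 0.038, from −0.55 to 0.95, and −0.10 after centring. The order of the regions by level agreed less between libraries here than in the other windows: Spearman's correlation between pairs of libraries was 0.293 to 0.588 over 17 regions, against 0.643 to 0.779 over 41 in Runx1 and 0.811 to 0.877 over 39 in Ets1. Over all regions of the series this correlation was 0.745 to 0.774. The regions of a window share their libraries, and those of Runx3 held the fewest reads. Whether the number of reads bears on this agreement was not tested.

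**Figure D3:**
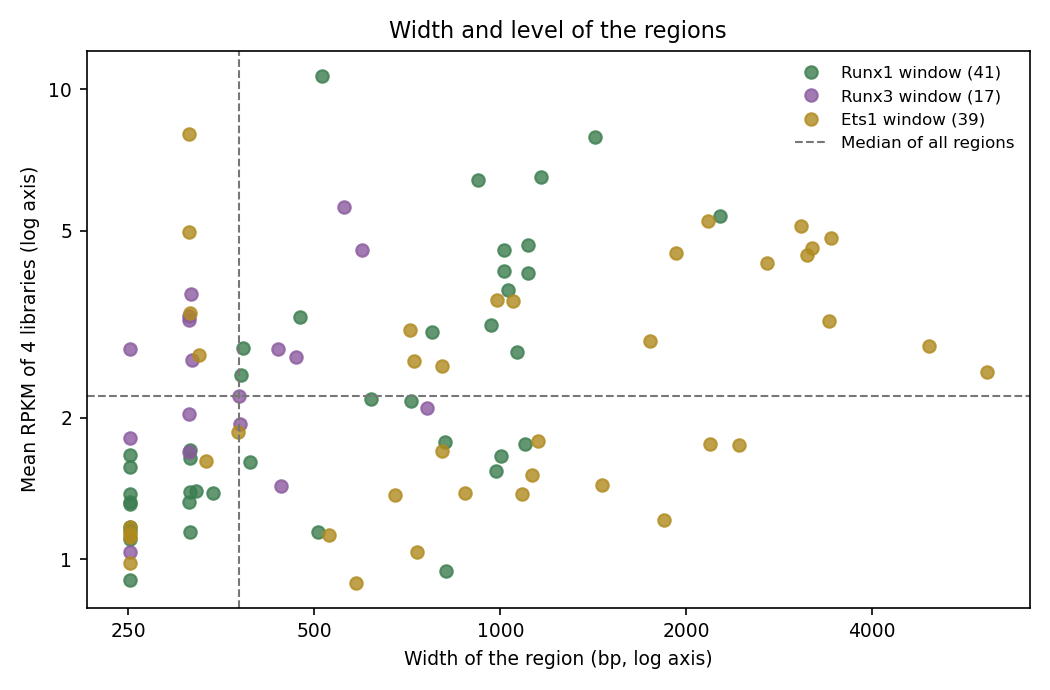
Width (bp) against mean RPKM of the 4 libraries for every region, both on log axes, with the medians of all 84476 regions as dashed lines (377 bp and 2.22 RPKM). Ets1 regions reach 6137 bp while none of them passes 8.03 RPKM, and Runx3 regions all stay at or under 760 bp.

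Ets1: a block of closely spaced regions, broad and narrow, held most of the reads of the window. The strongest and the widest region overlapped between the genotypes, and no region passed the test. From 32502473 to 32569068, 29 regions followed each other at gaps of 1000 bp or less over 66596 bp, of which they covered 80.2%. They held 91.3% of the window's reads. Such short gaps made up 31 of the 38 gaps of the window (81.6%, against 19.9% of all gaps). The widest member, chr9:32506233-32512369, is 6137 bp wide, and 30 of the 84476 regions are wider. The next widest, chr9:32517036-32521988, spans 4953 bp, and 75 regions are wider.

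The widest Ets1 region was not the highest, although the 19 Ets1 regions of 1000 bp or wider had a higher median level (2.92 RPKM) than the 20 narrower ones (1.66 RPKM). The widest measured 2.24 and 2.95 RPKM in WT and 2.51 and 2.31 RPKM in KO, at percentile 55.0 of all regions, although it held 402, 586, 644 and 277 reads. An RPKM averages over the whole width, so a short peak inside a broad region is diluted. KO minus WT was −0.069 there (SE 0.37, limma adjusted p 0.969), with overlapping genotypes. The highest level was instead in a narrow region left of the block, chr9:32484217-32484529, 313 bp wide, with 8.11 and 7.32 RPKM in WT (74 and 74 reads) and 7.97 and 8.70 RPKM in KO (104 and 53 reads). It ranked first of 39 in every library, at percentile 87.9 of all regions. The genotypes overlapped, and the difference was 0.10 (SE 0.27, 95% CI −0.44 to 0.64, limma adjusted p 0.932).

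Of the next 3 Ets1 regions by level, 1 overlapped between the genotypes and 2 had KO wholly above WT, as had 33.2% of all regions tested. Within the block, chr9:32554891-32557061 measured 3.97 and 5.60 RPKM in WT and 5.10 and 6.28 RPKM in KO, with overlap. At chr9:32537545-32540615, which held 368 and 516 reads in WT and 753 and 319 in KO, the values were 4.10 and 5.19 RPKM in WT and 5.87 and 5.32 RPKM in KO, so KO lay above WT by 0.23 (SE 0.30), about the shift of all regions, with a sign that turned under the same 3 scalings. Next to the strongest region, chr9:32485277-32485589 measured 3.29 and 5.14 RPKM in WT and 5.52 and 5.91 RPKM in KO, a difference of 0.39 (SE 0.31, limma adjusted p 0.713). Flicr WT replicate 1 was the lowest library in each of these 3.

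The largest fitted rise of the Ets1 window was at chr9:32500417-32501463, a 1047-bp region kept out of the block by a gap of 1009 bp, against a limit of 1000 bp. It measured 2.55 and 2.48 RPKM in WT (78 and 84 reads) and 4.32 and 4.80 RPKM in KO (189 and 98 reads), and the replicates of each genotype lay close together. The difference was 0.66 (SE 0.33, 95% CI −0.010 to 1.33), with an unadjusted p of 0.0535 and a limma adjusted p of 0.558, and it was 0.52 after centring. The largest fitted fall was near the right end of the block at chr9:32567195-32568070, with 2.07 and 1.59 RPKM in WT and 0.601 and 1.29 RPKM in KO (53, 45, 22 and 22 reads). That difference was −0.56 (SE 0.45, limma adjusted p 0.722). The narrow region chr9:32515205-32515518 had 3.83 and 4.04 RPKM in WT and 2.90 and 2.62 RPKM in KO with no overlap, a difference of −0.39 (SE 0.34) and of −0.53 (SE 0.27, limma adjusted p 0.653) after centring. At chr9:32540899-32541982 the fall of −0.40 (SE 0.47) came with overlapping genotypes, and at chr9:32576490-32576740 the rise of 0.48 (SE 0.52) rested on 8 and 4 reads in WT and 18 and 6 in KO.

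Of the 39 Ets1 regions, 37 were tested, while chr9:32477041-32477291 and chr9:32568485-32569068 were below the filter. Limma called 0 at an adjusted p under 0.05, where 0.0187% of all regions tested were called higher in KO and 0% lower. At an unadjusted p under 0.05 it called 0, where 8.22% of all regions tested were higher and 0.842% lower. Limma voom also called 0, where 18 of the 80254 regions tested were called higher in KO and 10 lower. The median difference was 0.015, from −0.56 to 0.66, and −0.12 after centring. KO lay wholly above WT in 10 of 37 (27.0%, against 33.2% of all regions tested) and below it in 4 (10.8%, against 7.81%). After centring, where 24.6% of all regions tested lay above and 13.9% below, the Ets1 counts were 4 above (10.8%) and 13 below (35.1%). The Runx3 counts after centring were 2 above (11.8%) and 4 below (23.5%), and those of Runx1 10 above (25.6%) and 4 below (10.3%). The 28 tested regions of the block had a median of −0.075, and −0.21 after centring. The 7 tested regions left of it, the largest rise of the window among them, had 0.33 and 0.19, and the 2 right of it 0.38 and 0.24. These parts also differed in median level, at 1.87 RPKM in the block, 3.31 left of it and 1.09 right of it. The 11 Ets1 regions of 2000 bp or wider had a median of 0.015, against 0.27 for the 2856 tested regions of that width in the series. None of these medians was tested. Without Flicr WT replicate 1, the library with the lowest share of reads in regions, the window medians were 0.119 for Runx1, 0.0734 for Runx3 and −0.0716 for Ets1 against 0.0692 for all regions, so only the Ets1 median then lay below it.

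**Figure D4:**
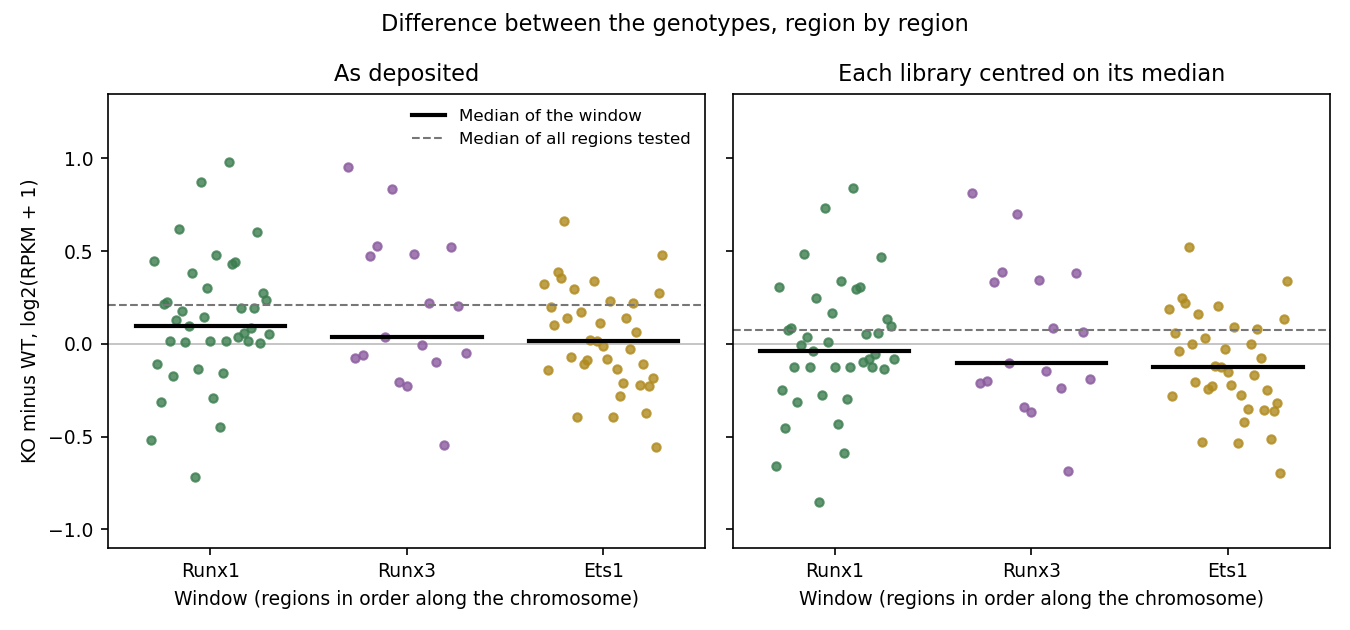
KO minus WT on the log2(RPKM + 1) scale for every tested region, in order along the chromosome within each window, as deposited and with each library centred on its median. Black bars are the window medians and dashed lines the medians of all regions tested, 0.21 and 0.073. Each window median lies below the dashed line in both panels.

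The share of a library's region reads that fell in each window is scaled to that library's total of reads in regions. Whether it still varies with the share of reads in regions was not tested. For Ets1 it was 0.0673% and 0.0620% in WT and 0.0514% and 0.0573% in KO, with no overlap. The means were 0.0646% ± 0.00377 in WT and 0.0543% ± 0.00422 in KO (SD, n = 2 each), and the exact permutation p, two-sided, was 0.333, below which a design of 2 against 2 cannot go. For Runx1 the shares were 0.0349% and 0.0284% in WT and 0.0286% and 0.0305% in KO, with overlap (exact permutation p of 1). For Runx3 they were 0.00736% and 0.00578% in WT and 0.00542% and 0.00591% in KO, also with overlap (exact permutation p of 0.667). The library with the highest share was Flicr WT replicate 1 in all 3 windows. This library also had the lowest share of reads in regions; its part in the result was not tested. Per 1000000 reads of the library the Ets1 window held 163 and 193 reads in WT and 180 and 195 in KO, which overlapped. On that scale KO lay above WT without overlap for Runx1, with 84.6 and 88.2 reads in WT and 100.2 and 103.8 in KO, and for Runx3, where KO minus WT was 1.62 reads.

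**Figure D5:**
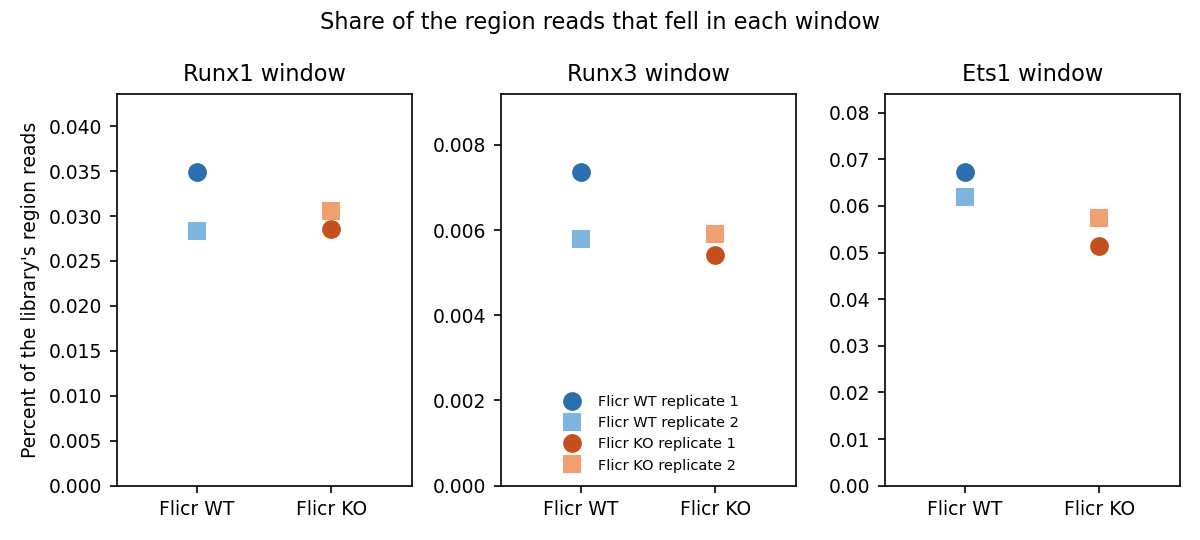
Percent of the reads in all regions that fell in the regions of each window, by library, with axes from 0. For Ets1 the KO libraries, at 0.0514% and 0.0573%, lie below the WT libraries, and for Runx1 and Runx3 the genotypes overlap.

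The edges of the windows were set by coordinates alone, and at 5 of the 6 edges the nearest region outside had a higher mean than the nearest inside. The nearest region left of the Ets1 window, chr9:32468680-32469780, lay 220 bp outside at 5.95 RPKM, above the 3.08 RPKM of the first region inside. Right of the Runx1 window, chr16:92864536-92864972 lay 14536 bp outside at 7.91 RPKM, against 1.65 RPKM for the last region inside. Left of the Runx3 window, chr4:134635713-134636707 lay 3293 bp outside at 5.35 RPKM, against 1.04 RPKM for the first region inside. The right edge of Runx3 was the exception, with 1.68 RPKM outside at chr4:134775624-134775874 and 4.56 RPKM inside. Outside the left edge of Runx1 and the right edge of Ets1 the means were 4.15 and 6.10 RPKM, against 1.31 and 1.14 RPKM inside.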

How the data were processed

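ATAC-seq was read from 4 lists of the same 84476 regions, 2 Flicr WT and 2 Flicr KO. The authors deposited RPKM values, per the file headers. The build mm9 and the tools DiffBind, HOMER 4.6, SAMtools, Picard 1.130 and Bowtie2 appear in the submitters' processing notes without their roles. The sources used here do not state how the transposase offset, duplicate reads or region calling were handled. Reads per region were recovered, since RPKM times the region length less 1 base was a whole multiple of 1 step in 100% of values (tolerance 0.001 reads); 78.8% to 85.5% of read numbers were even, so reads are not independent molecules.

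Differences were fitted with limma 3.58.1 (R 4.3.3; trend and robust options) on log2(RPKM + 1) over the 80254 regions with a mean RPKM of at least 1.01, the 5th percentile, with Benjamini-Hochberg adjustment over all of them and a threshold of 0.05. The options draw the variance of each region towards that of regions of like level. The median prior weight was 44.2 degrees of freedom as deposited and 10.1 after centring. The log2(RPKM + 1) scale understates changes of low regions. Centring subtracted each library's median. Window shares were compared by exact permutation over libraries. Python 3.11.15, pandas 2.3.3 and matplotlib 3.10.9 were used.

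In each window the regions named were the 4 of highest mean, the widest, the 2 largest rises and falls, and the 2 smallest p as deposited and after centring. Windows, motifs and rules were chosen with earlier results of these data known. Coordinates count from 1. Alternatives covered scaling, pseudocount, filter, test, window edges, each library left out and the replicate block.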

Additional observations from a re-analysis of the deposited data

How the results depend on the processing

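Limma or voom called 0 regions of the 3 windows in every setting that kept all 4 libraries. Calls from fits that left out a library are not given, as a genotype then had a single library. With all 4 libraries, few regions of the series were called: 15 of the 80254 tested as deposited and 42 with the replicate block, all higher in KO. Voom called 18 higher in KO and 10 lower. With median centring, median ratio centring, total region reads, quantile normalization or no trend and robust options, 0 regions of the whole series were called. A count of 0 in the windows was then fixed by the whole series and tells nothing particular about them. The median difference of each window was 0.099 for Runx1, 0.038 for Runx3 and 0.015 for Ets1. It was below 0 with each scaling that takes out all or part of the common shift of all regions (0.21). It was below the median of all regions there too. In the same order the medians were −0.040, −0.101 and −0.124 with median centring, which left 0.073 for all regions. They were −0.118, −0.179 and −0.202 with centring on the median ratio (chosen after seeing the data), and −0.121, −0.194 and −0.196 with total region reads. With quantile normalization they were −0.0911, −0.144 and −0.159, and with voom −0.226, −0.134 and −0.323. The Ets1 median was 0.00326 with a pseudocount of 5, 0.0647 with the filter at percentile 25, 0.100 with the window widened by 20 kb and −0.0188 with it narrowed by 20 kb, and the Runx3 median was 0.130 with the window narrowed. The cause was not tested. Leaving out a library gave −0.0716 (without Flicr WT replicate 1) to 0.123 (without Flicr KO replicate 1) for Ets1, 0.0734 to 0.206 for Runx3 and 0.0675 to 0.222 for Runx1. The median of all regions tested was 0.0692 and 0.346 without Flicr WT replicate 1 or 2. It was 0.203 and 0.240 without Flicr KO replicate 1 or 2. Runx1 lay above it without Flicr KO replicate 1 (0.222), and Runx1 and Runx3 without Flicr WT replicate 1.

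The KO minus WT share of region reads was −0.00209, −0.000913 and −0.0103 percentage points for Runx1, Runx3 and Ets1. Per 1000000 library reads the difference turned to 15.5, 1.62 and 9.57 reads, as that scale keeps the common shift. Leaving out a library gave −0.00536 to 0.00117 for Runx1 (above 0 only without Flicr WT replicate 1), −0.0017 to −0.000123 for Runx3 and −0.0133 to −0.00731 for Ets1.

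Of 384 refitted differences of the 26 named regions, 352 kept their direction and 32, in 11 regions, changed sign. None was called with all 4 libraries. With median ratio centring these were −0.00143 at 92641306, −0.0216 at 92818415, −0.214 at 92821862, −0.117 at 32484217. With total region reads these were −0.0896 at 92641306, −0.0915 at 92818415, −0.285 at 92821862, −0.0439 at 92825008, −0.196 at 32484217, −0.0444 at 32537545, −0.0553 at 32554891. With quantile normalization these were −0.107 at 92641306, −0.0911 at 92818415, −0.291 at 92821862, −0.0398 at 92825008, −0.207 at 32484217, −0.0341 at 32537545, −0.0475 at 32554891. With voom these were −0.158 at 92818415, −0.26 at 92821862, −0.0375 at 92825008, −0.209 at 32484217, −0.0369 at 32537545, −0.128 at 32554891. With median centring these were −0.136 at 92821862, −0.0389 at 32484217. Leaving out a library gave −1.11 to 0.0675 at 92582098 (above 0 without Flicr KO replicate 2), −0.04 to 0.47 at 92641306, −0.147 to 0.153 at 92821862 and −0.333 to 0.233 at 134761936 (each turned without Flicr KO replicate 1), and −0.561 to 0.101 at 134684769 and −0.211 to 0.0734 at 32506233 (each turned without Flicr WT replicate 2).

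The replicate numbers share only a number: the deviations of same-numbered libraries correlated at 0.0031. With the replicate block 0 regions of the windows were called, the medians were 0.0988, 0.0379 and 0.0145, and the Ets1 share difference was −0.0103 with an exact permutation p of 0.5. The block changed no call in the windows, while over all regions tested 42 were called higher in KO with it and 15 without it. Depth limits regions with few reads: 5 of the values in the Runx1 window, 1 in Runx3 and 1 in Ets1 rest on 3 reads or fewer.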
